A study of Mus musculus with 12 samples.

Results

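Potassium channel genes were taken as all genes in the deposited tables whose symbol is Kcn followed by 1 lower-case letter and digits, or by 1 more lower-case letter and digits, leaving out the antisense transcript gene Kcnq1ot1. The rule found 92 genes among 54532, in 20 subfamilies with 383 annotated transcripts, and all 92 are protein-coding in the GENCODE M21 annotation. Potassium channels let potassium leave or enter the cell and so set the resting potential of neurons, the repolarization of the action potential and the pattern of firing. The family holds pore-forming subunits gated by voltage (Kcna, Kcnb, Kcnc, Kcnd, Kcnh and Kcnq), by internal calcium or sodium (Kcnm, Kcnn and Kcnt) or by pH (Kcnu). It includes inward rectifiers (Kcnj) and two-pore leak channels (Kcnk). It also holds pore subunits that are silent alone (Kcnf, Kcng, Kcns and Kcnv) and auxiliary subunits (Kcnab, Kcne, Kcnip and Kcnmb).

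The study sequenced hippocampal total RNA from mice aged 3 months after deletion of Atrx, a chromatin remodeler, and the series title places that deletion in neurons. There were 12 libraries, 3 from each of control females, Atrx conditional knockout (cKO) females, control males and cKO males. The sources used here name no Cre driver, deleted exon or strain, and the controls are labelled only as control. The design text speaks of pairs of mice, but no label ties a library to 1 mouse, so the p-values measure the spread between libraries, which may be technical.

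Mapped bases ran from 1.16 to 8.64 Gb per library. Atrx itself lay at 55.6, 58.8 and 63.6 FPKM in control females against 31.0, 36.1 and 38.2 in cKO females, and at 40.2 to 46.9 in control males against 32.3 to 36.5 in cKO males, with no overlap in either sex. FPKM scales the fragments of a transcript by its length and by the depth of the library, and was summed over a gene's transcripts. Olfactory and vomeronasal receptor genes, which the hippocampus is not known to use, gave a measure of stray signal. For this, a gene's bases were divided by the union of its exons and put on the FPKM scale. Values so obtained are usually below the summed FPKM. Over the 1459 protein-coding receptor genes, the median of this measure was 0.00664 to 0.0276 in control males, 0.0863 to 0.602 in control females and 0.0178 to 0.286 in cKO males. In cKO females it was 0.305, 1.97 and 2.25, so replicates 2 and 3 of this group stand apart. Tests were therefore run on values from which each library's receptor median had been subtracted. Levels are given as deposited FPKM.

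The channel genes summed to 584 to 841 FPKM per library. In control males, 24 of the 92 had a mean of at least 10 FPKM, 59 of at least 1, and 25 lay below 0.5. On the scale used for the receptor genes, 33 channel genes lay above the receptors' 95th percentile in all 12 libraries and 8 did so in none. Of the 92, 54 passed the filter on low values and were tested. The highest value of the other 38 in any control male library was 2.05 FPKM, for Kcnu1.

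**Figure D1:**
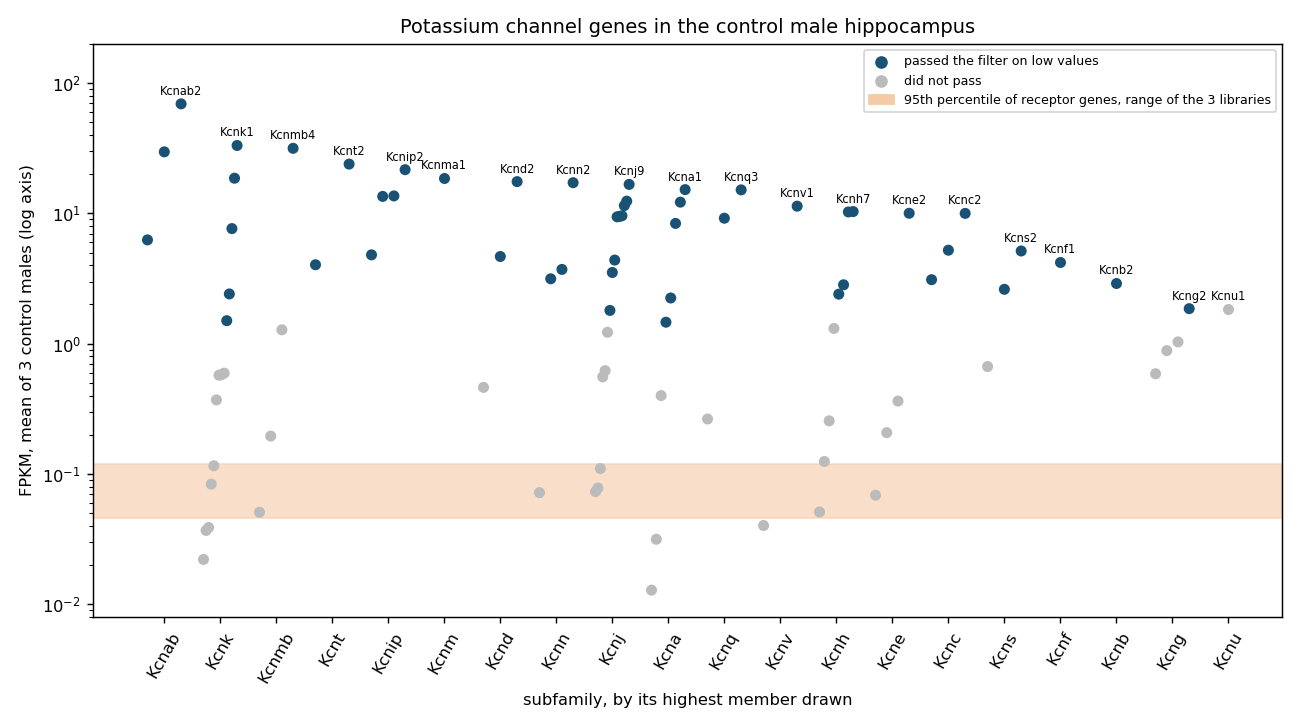
Mean deposited FPKM of 88 potassium channel genes over the 3 control males, on a log axis, by subfamily, with blue points for 51 genes tested and the band giving the 95th percentile of receptor genes (range of the 3 libraries). The highest gene drawn in each subfamily is named, and Kcnab2 is the highest of all at 69.4 FPKM. The band is on the scale of bases over the union of exons, not of summed FPKM.

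Among the voltage-gated pore subunits, Kcnd2, which carries the A-type current of dendrites, lay at 17.6 ± 0.256 FPKM in control males (SD, n = 3). Kcnd2 measured 26.7, 27.6 and 25.3 FPKM in control females, 27.1, 19.01 and 18.3 in the cKO females, 17.3, 17.6 and 17.8 in control males and 17.3, 18.7 and 15.99 among cKO males. Its lowest control female library lay above its highest control male library, and the 2 cKO female libraries with high receptor signal lay near the males. Kcnd3 was lower, at 4.67 ± 1.20 FPKM in control males (SD, n = 3), and Kcnd1 reached at most 0.785 there.

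Kcnq3 and Kcnq5 encode subunits of the M-current, which limits repetitive firing. Kcnq3 lay at 15.2 ± 0.845 FPKM in control males (SD, n = 3), and Kcnq5 lay below it at 9.19 without overlap of their ranges. The epithelial and cardiac Kcnq1 reached at most 0.442 FPKM there.

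Kcna1, the highest of the Kv1 channels of axons, measured 25.7, 25.9 and 22.9 FPKM in control females, 24.9, 16.3 and 16.1 in the cKO females, 16.5, 16.4 and 12.8 in control males and 16.7, 17.2 and 12.7 among cKO males. Kcna2 did not differ from Kcna1 beyond the spread of the control males, whereas in control females the ranges of these genes did not overlap. The order went on with Kcna4 at 8.38, Kcna6 at 2.24 and Kcna3 at 1.46 FPKM in control males. Kcna5, Kcna7 and Kcna10 reached at most 0.536 FPKM in those libraries.

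Kcnc2, of the Kv3 channels that permit fast spiking, measured 20.98, 17.1 and 19.6 FPKM in control females, 16.9, 16.1 and 11.5 in the cKO females, 6.35, 11.4 and 12.2 in control males and 10.4, 9.37 and 5.72 among cKO males. Within the control males, Kcnc2, Kcnc1 and Kcnc4 followed each other at 10.01, 5.22 and 3.10 FPKM without overlap of their ranges. The delayed rectifier Kcnb2 measured 5.33, 4.07 and 5.08 FPKM in control females, 4.61, 6.79 and 3.47 in the cKO females, 2.95, 2.67 and 3.18 in control males and 2.54, 3.78 and 2.43 among cKO males. Every control male library lay below every control female library, and the cKO groups overlapped.

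Kcnh7, an Erg channel, measured 15.6, 14.7 and 13.3 FPKM in control females, 13.4, 12.8 and 14.3 in the cKO females, 12.6, 9.63 and 8.81 in control males and 9.62, 10.9 and 9.01 among cKO males. Kcnh7 and Kcnh3, of the Elk type, did not differ beyond their spread in control males, at 10.3 FPKM each. Kcnh5, Kcnh1 and Kcnh2 lay between 1.31 and 2.83 FPKM there, and Kcnh4, Kcnh6 and Kcnh8 reached at most 0.290.

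The silent subunits form channels with Kcnb pores. Kcnv1, the highest of them, measured 13.5, 11.6 and 14.04 FPKM in control females, 13.6, 12.9 and 11.5 in the cKO females, 11.6, 10.6 and 11.9 in control males and 10.8, 11.8 and 10.4 among cKO males. Its range over the 12 libraries was narrow, from 10.4 to 14.04. Kcns2 measured 7.04, 6.94 and 7.51 FPKM in control females, 7.68, 5.66 and 6.13 in the cKO females, 5.42, 4.96 and 5.07 in control males and 4.53, 4.84 and 5.54 among cKO males. Kcnf1 measured 8.18, 4.89 and 4.55 FPKM in control females, 4.38, 4.63 and 4.52 in the cKO females, 5.12, 4.12 and 3.55 in control males and 4.47, 4.76 and 3.89 among cKO males. Its control female replicate 1 lay above all other libraries. Kcng2 was at 2.798, 2.71 and 2.49 FPKM in control females, 2.64, 2.33 and 2.79 in the cKO females, 1.67, 2.02 and 1.89 in control males and 2.05, 1.89 and 1.88 among cKO males. The other silent subunits were Kcns3, at 2.62 FPKM in control males, and Kcng1, Kcng3, Kcng4, Kcns1 and Kcnv2, each at a mean of 1.03 or less there.

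Auxiliary subunits gave the highest level of the family. Kcnab2, a beta subunit of Kv1 channels, measured 125, 140.1 and 84.9 FPKM in control females, 142, 57.1 and 46.1 in the cKO females, 63.4, 74.4 and 70.5 in control males and 121, 70.1 and 114 among cKO males. In the controls the females lay above the males, and the cKO groups overlapped. Kcnab1 lay at 29.7 and Kcnab3 at 6.27 FPKM in control males, with no overlap between the 3 genes. Kcnip2, a calcium-binding partner of Kcnd2, measured 27.4, 29.5 and 28.05 FPKM in control females, 31.4, 27.7 and 21.1 in the cKO females, 23.6, 23.8 and 17.7 in control males and 26.8, 24.2 and 17.1 among cKO males. Kcnip4 and Kcnip3 did not differ beyond their spread in control males, at 13.6 and 13.5 FPKM, and Kcnip1 lay at 4.81.

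Of the calcium-activated channels, Kcnma1, the pore of the large-conductance BK channel, measured 34.1, 25.4 and 29.1 FPKM in control females, 24.1, 29.5 and 25.8 in the cKO females, 21.5, 16.2 and 18.3 in control males and 16.3, 21.5 and 15.1 among cKO males. Kcnmb4, its neuronal beta subunit, measured 36.2, 24.5 and 27.8 FPKM in control females, 30.9, 26 and 26.3 in the cKO females, 37.1, 30.8 and 26.9 in control males and 31.9, 28.5 and 28.7 among cKO males. This gene shares 31.5% of its exon bases with antisense genes, and whether counting used strand is not stated in these sources. Kcnmb1, Kcnmb2 and Kcnmb3 lay at 0.195, 1.28 and 0.0508 FPKM in control males. Kcnn2, a small-conductance channel of the afterhyperpolarization, measured 21.9, 17.05 and 19.5 FPKM in control females, 19.3, 11.7 and 16 in the cKO females, 18.2, 15.6 and 17.8 in control males and 14.98, 14.7 and 9.49 among cKO males. Kcnn3 and Kcnn1 did not differ beyond their spread in control males, at 3.72 and 3.15 FPKM, and Kcnn4 lay at 0.0719.

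Kcnt2, a sodium-activated channel, measured 16.6, 17.9 and 17.2 FPKM in control females, 20.8, 12.2 and 14.6 in the cKO females, 22.7, 25.1 and 23.97 in control males and 20.97, 19.9 and 21.8 among cKO males. Its 3 highest libraries were the control males. Kcnt1 was lower, at 4.04 ± 1.94 FPKM in control males (SD, n = 3). Kcnu1, a pH-gated channel known from sperm, measured 1.78, 1.49 and 1.95 FPKM in control females, 1.87, 7.82 and 6.16 in the cKO females, 2.05, 1.64 and 1.84 in control males and 1.62, 1.23 and 1.57 among cKO males. It was highest in the cKO female libraries of high receptor signal.

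Among the inward rectifiers, Kcnj9, Kcnj6 and Kcnj3 encode subunits of the channels that G proteins open. Kcnj9 measured 24.4, 17.6 and 17.2 FPKM in control females, 20.9, 17.8 and 15.8 in the cKO females, 20.4, 14.2 and 15.5 in control males and 14.5, 19.7 and 14.9 among cKO males. In control males it lay above the next in order without overlap. That order ran through the glial Kcnj10, Kcnj6, the glial Kcnj16, Kcnj3 and the strong rectifier Kcnj4, at 12.4, 11.5, 9.59, 9.50 and 9.42 FPKM, and none of these differed from its neighbour beyond their spread. Kcnj2, another strong rectifier, lay at 4.39 FPKM. Kcnj11, the pore of the ATP-sensitive channel, lay at 1.80, and its vascular counterpart Kcnj8 at 0.621. The remaining inward rectifiers Kcnj1, Kcnj5, Kcnj12, Kcnj14 and Kcnj15 lay between 0.0731 and 1.22 FPKM.

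Two-pore channels carry the leak current. Kcnk1 measured 29.6, 45.2 and 32.6 FPKM in control females, 30.7, 20.4 and 18.4 in the cKO females, 33.5, 32.5 and 33.8 in control males and 31.8, 29.8 and 32.2 among cKO males. Its control female replicate 2 was the highest library and its cKO female replicates 2 and 3 were the lowest. Kcnk2, a mechanically gated leak channel, lay at 18.6 ± 3.63 FPKM in control males (SD, n = 3), followed by Kcnk10 at 7.65, Kcnk9 at 2.41 and Kcnk13 at 1.502. The other 9 Kcnk genes had means of 0.594 or less there.

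Members known from cells other than neurons were set beside markers of those cells. Kcne2 and Kcnj13 are channels of the choroid plexus, the epithelium that secretes cerebrospinal fluid, where transthyretin (Ttr) is the leading transcript. Kcne2, an auxiliary subunit, measured 0.473, 29.4 and 0.819 FPKM in control females, 0.987, 2.79 and 2.53 in the cKO females, 14.6, 8.01 and 7.503 in control males and 9.14, 0.773 and 0.2402 among cKO males. Kcnj13, an inward rectifier, measured 1.05, 11.3 and 1.06 FPKM in control females, 1.47, 2.897 and 2.87 in the cKO females, 5.73, 2.77 and 2.07 in control males and 2.89, 1.05 and 0.759 among cKO males. Ttr lay at 15.4, 5701 and 9.09 FPKM in control females, 23.9, 20.9 and 25.9 in the cKO females, 4002, 1569.5 and 1309 in control males and 2499, 40.9 and 43.03 among cKO males. The 5 libraries with Ttr at 1309 FPKM or more, which are control female replicate 2, all control males and cKO male replicate 1, are also the 5 highest for Kcne2. The 6 choroid plexus markers summed to 1319.6 to 5777 FPKM in those libraries and to 19.3 to 49.8 in the other 7. Kcnj13 followed Ttr less closely. Its cKO female replicates 2 and 3, at 2.897 and 2.87 FPKM, lay above control male replicates 2 and 3, at 2.77 and 2.07. Receptor medians were 1.97 and 2.25 in those cKO female libraries, against 0.0128 and 0.00664 in those control males. The part of this background in the deposited Kcnj13 values was not tested. Kcnj13 shares 49.1% of its exon bases with Gigyf2 on the opposite strand, a gene at 47.1 to 80.6 FPKM, so without knowledge of strand reads over those shared bases cannot be told apart from that gene's.

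**Figure D2:**
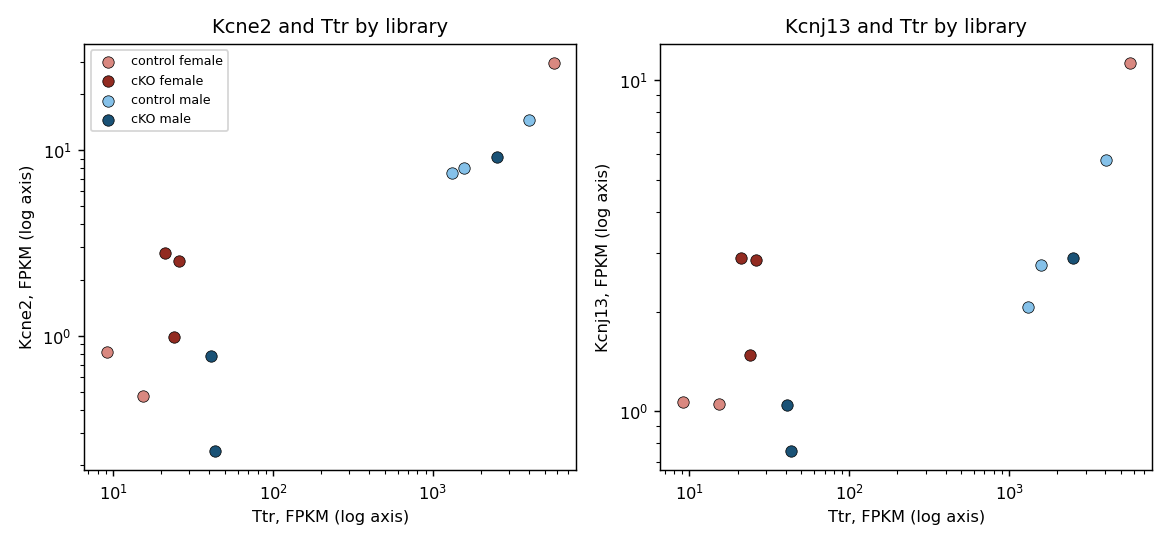
Deposited FPKM of Kcne2 (left) and Kcnj13 (right) against Ttr in the 12 libraries, both axes on a log scale, with colours for the 4 groups. The 5 libraries with Ttr at 1309 FPKM or more hold the highest Kcne2 values, from 7.50 to 29.4 FPKM, and come from 3 of the groups.

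Kcne2 and Kcnj13 had 2 of the 4 widest spreads within groups, so the promoters of both are shown beside that of Kcnd2, whose control libraries lay close together. The windows are from RefSeq on GRCm38.p6 and run from 250 bases before to 50 after the annotated start, 5′ to 3′, with every CG dinucleotide, which reads the same on both strands, in capitals. Kcnd2 (chr6:21215096-21215395, plus strand) holds 26 CG, Kcne2 (chr16:92292139-92292438, plus strand) 9 and Kcnj13 (chr1:87394680-87394979, minus strand) 5.
Kcnd2: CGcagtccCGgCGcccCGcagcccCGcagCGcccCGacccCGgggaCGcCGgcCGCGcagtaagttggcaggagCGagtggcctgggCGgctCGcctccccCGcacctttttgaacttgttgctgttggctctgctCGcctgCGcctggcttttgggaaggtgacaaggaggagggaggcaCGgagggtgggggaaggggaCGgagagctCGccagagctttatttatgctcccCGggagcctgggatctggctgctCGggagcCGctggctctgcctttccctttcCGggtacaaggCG
Kcne2: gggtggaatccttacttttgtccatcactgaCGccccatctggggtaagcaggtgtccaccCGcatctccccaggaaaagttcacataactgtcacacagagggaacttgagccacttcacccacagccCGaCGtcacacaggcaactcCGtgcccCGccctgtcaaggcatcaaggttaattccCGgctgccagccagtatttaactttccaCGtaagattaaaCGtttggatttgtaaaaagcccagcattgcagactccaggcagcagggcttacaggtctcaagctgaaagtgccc
Kcnj13: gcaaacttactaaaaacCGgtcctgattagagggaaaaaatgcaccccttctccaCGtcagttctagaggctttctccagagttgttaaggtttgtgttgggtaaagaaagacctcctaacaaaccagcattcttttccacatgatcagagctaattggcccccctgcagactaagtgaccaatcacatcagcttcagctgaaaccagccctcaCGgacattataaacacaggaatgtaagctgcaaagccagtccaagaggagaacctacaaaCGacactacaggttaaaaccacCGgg
The Kcnd2 window ends before the start of its main annotated transcript, because the RefSeq start lies 157 bases upstream of it. For Kcne2 and Kcnj13 the starts coincide.

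The promoter table held 67 of the 92 genes, and for 55 its start lay within 500 bases of the main transcript's start. Their windows of 300 bases held a median of 12 CG, against 15 over 14295 protein-coding genes matched the same way. Over the 32 channel genes with a mean background-subtracted level of at least 1 the median was 18, and 59.4% held 15 or more CG. Over all protein-coding genes of that level the median was 22, and 74.6% held 15 or more. Over the 18 channel genes below 0.5 the median was 7 and 33.3% reached 15, against 4 and 18% over all protein-coding genes below 0.5. Of all 32851 windows in the table, 34.6% held at least 15. Among other channel genes of wide spread within groups, Kcnj16 held 8 CG, Kcnn3 11, Kcnd3 25 and Kcns3 32. Of narrow spread, Kcnab1 held 3 and Kcna4 20. Whether CG number goes with spread was not tested.

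Kcnj10 and Kcnj16 encode the inward rectifier of astrocytes that buffers potassium. Kcnj10 measured 14.9, 13.9 and 10.8 FPKM in control females, 13.8, 8.21 and 6.55 in the cKO females, 13.2, 11.2 and 12.8 in control males and 16.02, 12.9 and 14.3 among cKO males. Kcnj16 measured 1.42, 1.097 and 6.897 FPKM in control females, 6.07, 7.105 and 1.87 in the cKO females, 9.43, 8.96 and 10.4 in control males and 9.005, 2.09 and 5.18 among cKO males. Kcnj16 was at most at 2.09 FPKM in 4 libraries from 3 groups and at least at 5.18 in all others. The 5 astrocyte markers, among them Aqp4 and Gfap, were all detected and summed after subtraction to 149 to 154 in control females, 151 to 177 in cKO females, 217 to 255 in control males and 180 to 222 in cKO males. Control female replicates 1 and 2 had Kcnj16 at 1.42 and 1.10 FPKM with astrocyte sums of 149 and 154, while control female replicate 3 had 6.90 with a sum of 151. In deposited FPKM, the scale of the Kcnj16 values, the sums of replicates 1, 2 and 3 were 304, 325 and 281.5. The part of astrocyte RNA in the levels of these genes was not tested.

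Kcnj8, a channel of mural cells of the vessel wall, did not pass the filter on low values and measured 1.01, 0.6002 and 1.41 FPKM in control females, 1.07, 2.303 and 2.81 in the cKO females, 0.629, 0.732 and 0.503 in control males and 0.736, 0.817 and 0.496 among cKO males. Its highest values were in cKO female replicates 2 and 3, the libraries of high receptor signal. The 4 mural markers summed after subtraction to 24.99 to 32.8 over all libraries, and to 32.1 to 41.9 in deposited FPKM, the scale of these Kcnj8 values. Kcnk13, a leak channel of microglia, measured 1.67, 1.34 and 1.33 FPKM in control females, 1.75, 2.02 and 1.83 in the cKO females, 1.39, 1.65 and 1.46 in control males and 1.67, 1.38 and 1.55 among cKO males. The 5 microglia markers summed after subtraction to 45.6 to 51.4 in control females and 63.5 to 63.8 in control males. In deposited FPKM they summed to 66.7 to 73.3 and 88.6 to 93.1. Kcnk13 overlapped between these groups on both scales. In such bulk libraries fewer cells of a type and less RNA per cell cannot be told apart.

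Spread within the groups was set beside that of all genes. The median within-group SD of the log2 values was 0.217 over the 54 tested channel genes and 0.247 over all 15094 genes tested. It exceeded 0.5 in 13 of the 54, against 26% of all genes. The widest were Kcne2 (1.81), Kcnj16 (1.33), Kcnd3 (1.13), Kcnj13 (1.06) and Kcnn3 (1.05). Of the 45 tested channel genes with more than 1 annotated transcript, 18 had the same leading transcript in all 12 libraries and 27 did not.

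Some of this switching was abrupt. Kcnab2 transcript ENSMUST00000105648 lay at 86.1 to 106 FPKM in 5 libraries, control female replicates 1 and 2, cKO female replicate 1 and cKO male replicates 1 and 3, and at 0 to 17.998 in the other 7. Those 5 libraries are also the highest for the whole gene. Kcnip4, whose total ran from 9.06 to 18.1 FPKM, was led by ENSMUST00000176191 in cKO female replicates 1 and 3, at 12.7 and 8.85 FPKM, while in the other 10 libraries this transcript stayed at or below 0.452 and ENSMUST00000175660 led. Such estimates divide reads that transcripts share, and these genes were picked after their values were seen.

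The effect of the Atrx deletion was tested with limma, in 1 model of the 4 group means over the 12 libraries and 15094 genes, with Benjamini-Hochberg adjustment over all of them and a two-sided threshold of 0.05. The scale is log2 of the background-subtracted, scaled level plus 0.5, where the level counts bases over the union of a gene's exons, so it is usually below the summed FPKM. The added 0.5 shrinks changes of low genes, whereas values that reach 0 after subtraction can enlarge them. No channel gene passed in females, where 0.0265% of all genes passed as higher and 0.0464% as lower in cKO. In males also none passed, against 0% and 0.00663% of all genes. None passed in the mean of both effects (0.0133% and 0.0199%) or in the difference between them (0% and 0%). At an unadjusted limma p under 0.05, 3 channel genes were higher in females and 9 lower, where 18.1% and 11.2% of all genes were. In males 1 was higher and 2 lower (all genes 1.32% and 1%), for the mean 4 and 4 (14.3% and 6.12%), and for the difference 3 and 1 (3.01% and 3.23%). The median log2 difference over the 54 channel genes was −0.04 in females and −0.04 in males, and over all genes 0.02 and 0.03. In females these medians moved to −0.565 and 0.327 without background subtraction, and to −0.52 and −0.46 with no scaling between libraries. The setting without background subtraction also takes summed FPKM as its measure and scales over all genes above 0 in every library. It keeps genes at 0.5 or more in at least 3 libraries, so the parts of these steps cannot be told apart.

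Among the channel genes higher in cKO females was Kcnh5, an Eag channel. Its background-subtracted levels were 2.85, 3.02 and 2.87 in control females, 3.48, 5.66 and 4.02 in the cKO females, 2.79, 2.22 and 2.72 in control males and 2.99, 2.47 and 3.003 among cKO males. The female groups did not overlap, and cKO replicate 2 was the highest. The log2 difference was 0.49 (SE 0.16, limma adjusted p = 0.114). It was followed by Kcnj2 at 0.38 (0.125), Kcnq5 at 0.49 (0.208) and Kcnv1 at 0.21 (0.213).

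In the other direction Kcnj11 came first, with levels of 1.71, 2.14 and 1.15 in control females, 1.18, 0 and 0 in the cKO females, 1.31, 1.42 and 1.32 in control males and 1.06, 1.81 and 1.13 among cKO males. Replicates 2 and 3 of the cKO females were at 0 after subtraction, and replicate 1 lay within the controls. The log2 difference was −1.51 (SE 0.44, limma adjusted p = 0.114). It was −0.35 without cKO replicates 2 and 3, −0.78 without background subtraction and −2.88 with a pseudocount of 0.1. It was followed by Kcnq3 at −0.27 (0.114), Kcnt1 at −1.48 (0.114), Kcna3 at −0.75 (0.117) and Kcnh1 at −0.47 (0.124). Replicates 2 and 3 are the libraries with receptor medians of 1.97 and 2.25, and 25 and 34 of the 92 channel genes were at 0 after subtraction there, against 1 to 14 elsewhere. The part of this background in the female values was not tested.

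The female result changed with 1 library. Without cKO female replicate 1, which leaves the pair of high background, 15 channel genes passed, 5 higher and 10 lower, among 5771 of 14917 genes or 38.7%. Kcnj11, Kcnq3, Kcnt1, Kcnh5, Kcnj2, Kcna3 and Kcnh1 were among the 15. With array weights, which give variable libraries less weight, 8 passed, 1 higher and 7 lower, among 23.2% of all genes. Without background subtraction Kcnh5 was at −0.23, where the median of all genes was 0.33. Replicate 1 also differed in blood, with 5 globin and erythroid markers at 449 FPKM in sum against 50.1 to 249.6 in the other 11 libraries.

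In males Kcna6, a Kv1 channel, had the smallest p among the genes higher in cKO, with levels of 2.895, 1.78 and 1.64 in control females, 1.61, 5.53 and 4.55 in the cKO females, 1.58, 1.55 and 1.64 in control males and 4.48, 4.63 and 1.96 among cKO males. All cKO males lay above the control males, but replicate 3 only just. The log2 difference was 0.93 (SE 0.39, limma adjusted p = 1). Kcnab2 at 0.24, Kcnj2 at 0.20, Kcnj10 at 0.21 and Kcnip2 at 0.13 came next, each at an adjusted p of 1. Among the lower genes, Kcnq3 at −0.27 was followed by Kcnh3 at −0.31, Kcne2 at −2.34, Kcnn2 at −0.22 and Kcnip4 at −0.27, also at an adjusted p of 1. For Kcne2 the difference goes with the choroid plexus markers, which summed to 2514, 49.8 and 47.4 FPKM in cKO male replicates 1, 2 and 3 and to 1319.6 to 4028 in control males. Their part in the Kcne2 value was not tested.

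The Kcna6 values follow a single transcript. ENSMUST00000112242, of 1 exon and 3464 bases, lay at 0.166 to 0.375 FPKM in 8 libraries and at 4.07 to 4.94 in cKO female replicates 2 and 3 and cKO male replicates 1 and 2. The gene's total was 2.22 to 3.97 FPKM in the first set and 7.09 to 7.87 in the second. The 4 libraries differ in receptor background, with medians of 1.97, 2.25, 0.0205 and 0.286. Kcna6 (chr6:126708329-126740674, minus strand) shares 39.6% of its exon bases with Gm26673 on the opposite strand, which was at 0.0884 to 1.10 FPKM. The pattern was noticed in these data, and no test was made of it.

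**Figure D3:**
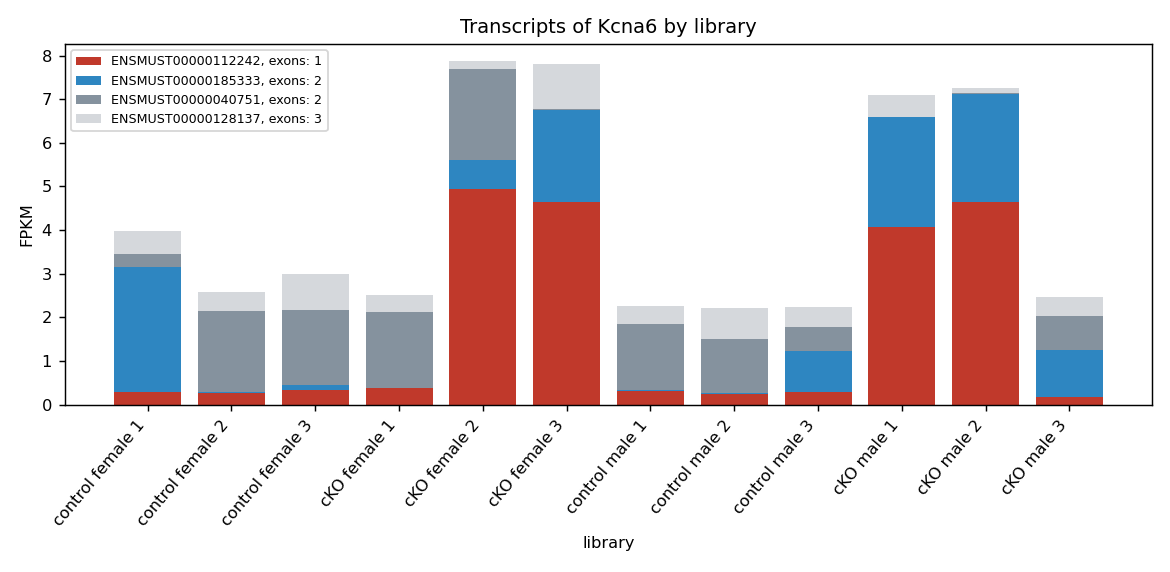
Deposited FPKM of the annotated transcripts of Kcna6, stacked, in each of the 12 libraries, with the exon number of each transcript in the key. The 1-exon transcript in red lies at 4.07 to 4.94 FPKM in 4 cKO libraries and at most at 0.375 in the others.

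The mean of both effects was led upward by Kcnj2, an inward rectifier, with levels of 3.47, 4.44 and 4.51 in control females, 4.39, 5.91 and 6.45 in the cKO females, 3.74, 4.14 and 4.16 in control males and 4.29, 5.11 and 4.702 among cKO males. The cKO libraries lay above the controls in males and overlapped them in females. The log2 difference was 0.29 (SE 0.10, limma adjusted p = 0.222), and that of Kcna6 was 0.79, of Kcnh5 0.30 and of Kcnip2 0.15, at adjusted p of 0.222, 0.222 and 0.329. Downward, Kcnq3 was followed by Kcnh3 at −0.33 (0.222), Kcnj11 at −0.77 (0.225), Kcnn2 at −0.22 (0.227) and Kcnc1 at −0.33 (0.246). Without background subtraction Kcnj2 was at −0.22, where the median of all genes was 0.24.

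Kcnq3 was the only channel gene whose cKO libraries lay on 1 side of all controls in both sexes on the background-subtracted scale, where 0.947% of all tested genes did so downward and 1.55% upward. Its levels were 16.3, 15.04 and 14.8 in control females, 13.2, 12.2 and 12.6 in the cKO females, 10.04, 10.6 and 9.83 in control males and 8.24, 9.37 and 7.54 among cKO males. The deposited FPKM was 25.6, 23.8 and 21.4 FPKM in control females, 20.7, 16.1 and 15.7 in the cKO females, 16.1, 15.1 and 14.4 in control males and 13.4, 14.7 and 11.1 among cKO males, and on that scale the male groups overlapped. The mean log2 difference was −0.27 (SE 0.06, limma adjusted p = 0.222). The 5 CA1 pyramidal markers, summed after subtraction, also lay on 1 side in both sexes, at 27.7 to 31.9 in control females and 20.4 to 23.3 in cKO females, and at 19.0 to 20.6 in control males and 13.7 to 17.8 in cKO males. None of the 5 passed the test in either sex, and their part in the Kcnq3 value was not tested. Kcnq3 lies at chr15:65986387-66286642 on the minus strand of GRCm38.p6.

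Counting groups that do not overlap, 4 channel genes in females were higher in cKO, Kcnd2, Kcnh5 and Kcnip2 among them, where 10.2% of all tested genes did the same. There were 6 lower ones, Kcna3, Kcna4, Kcnh1, Kcnh3, Kcnq3 and Kcnt1, against 7.49%. In males, Kcna6, Kcnab2, Kcnj10 and Kcnj2 were higher, against 7.43% of all genes, and Kcnc4, Kcnip3, Kcnj16, Kcnn2, Kcnq3 and Kcnq5 were lower, against 4.66%.

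For the difference between the effects, male minus female, Kcnt1 came first, with levels of 1.98, 1.58 and 1.55 in control females, 1.38, 0.0152 and 0 in the cKO females, 1.93, 0.954 and 0.806 in control males and 1.51, 1.53 and 1.43 among cKO males. The value rests on the cKO females, of which replicates 2 and 3 were at 0.0152 and 0. It was 1.74 (SE 0.66, limma adjusted p = 0.585). Kcnj11 at 1.47, Kcna3 at 0.86, Kcnn1 at 1.15 and Kcnj10 at 0.52 followed at the same adjusted p. In the other direction Kcnq5 had levels of 8.38, 9.01 and 4.01 in control females, 8.39, 11.4 and 9.56 in the cKO females, 6.92, 6.16 and 7.05 in control males and 5.15, 4.21 and 5.98 among cKO males. Its control female replicate 3 lay apart from the other 2. The difference was −0.87 (SE 0.35, limma adjusted p = 0.585), followed by Kcnv1 at −0.25, Kcnh5 at −0.38 and Kcnk2 at −0.32, the last at an adjusted p of 0.586. Without cKO female replicate 1, 14 channel genes passed for the mean effect and 8 for the difference, among 29.7% and 19.5% of all genes, and with array weights 10 and 6, among 22.9% and 11.5%.

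**Figure D4:**
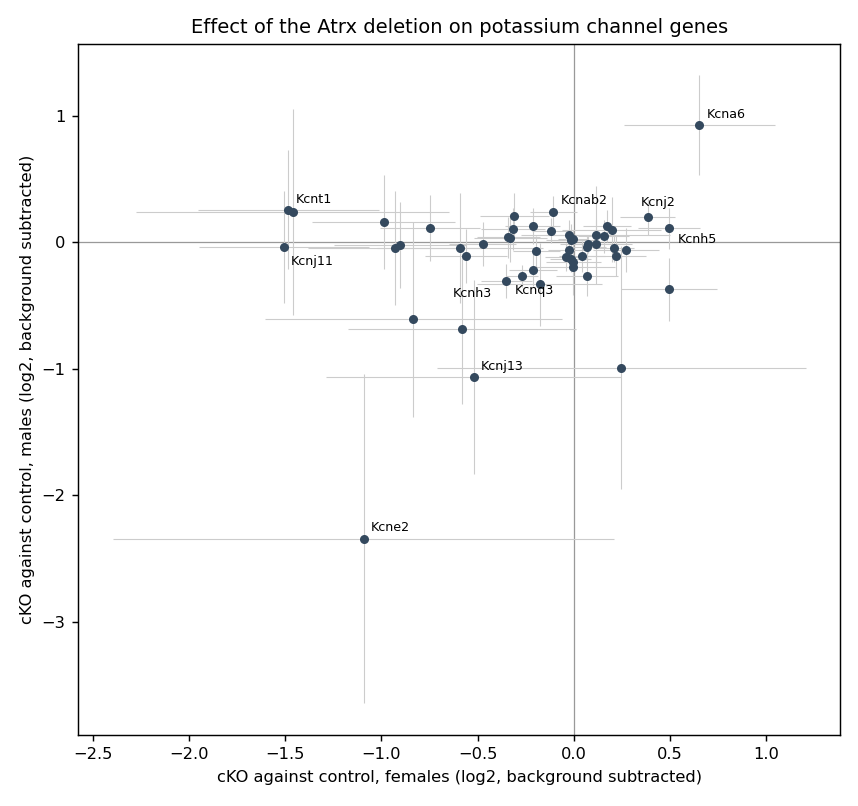
log2 difference of cKO against control in females (horizontal) and males (vertical) for 51 of the potassium channel genes tested, on the background-subtracted scale; bars are 1 SE from limma. Most points lie within 0.5 of 0 on both axes. Kcne2 and Kcnj13, the choroid plexus pair, have wide bars. They are not alone, as the within-group SD was 1.33 for Kcnj16 and 1.13 for Kcnd3, against 1.06 for Kcnj13.

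Control males and control females differed in more channel genes. Lower in males were 10 of the 54, which is 18.5% where 5.15% of all tested genes passed in that direction, and none was higher, where 6.54% of all genes passed. They comprise the Kv4 pore Kcnd2 and its partner Kcnip2, the Kv1 pores Kcna1, Kcna2 and Kcna4 and their beta subunit Kcnab1, the M-channel subunit Kcnq3, the Kv3 pore Kcnc1, the BK pore Kcnma1 and the G protein-gated Kcnj3. The median log2 difference of males against females was −0.21 over the channel genes and −0.07 over all genes. Without background subtraction it was 0.09 over the channel genes and −0.32 over all genes, the reverse order.

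Kcnd2 (chr6:21215503-21729805, plus strand) had levels of 23.4, 23.9 and 24.1 in control females, 24.5, 25.7 and 25.1 in the cKO females, 15.1, 16.9 and 16.3 in control males and 15.4, 17.4 and 15.2 among cKO males. All 6 female libraries lay above all 6 male libraries. The log2 difference between controls was −0.55 (SE 0.07, limma adjusted p = 0.00261). Kcnq3 was at −0.58 (adjusted p = 0.00364), Kcna4 at −0.66 (0.00382), Kcna1 at −0.67 (0.00852) and Kcna2 at −0.56 (0.0110). Kcnab1 was at −0.37 (0.0133), Kcnj3 at −0.64 (0.0184), Kcnma1 at −0.46 (0.0207), Kcnip2 at −0.51 (0.0244) and Kcnc1 at −0.82 (0.0328). The control groups of these 10 did not overlap in the deposited FPKM either, but a test on these libraries had chosen them. Over all 54 channel genes tested, 24 (44.4%) lay lower in control males without overlap on that scale, against 36% of all genes. After subtraction it was 21 (38.9%), against 27.5%. Kcnj3 shares 31.1% of its exon bases with Gm26794.

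Among genes higher in control males, none of which passed, Kcnk2 had the smallest p, with levels of 6.27, 5.61 and 4.69 in control females, 5.596, 7.44 and 6.47 in the cKO females, 8.09, 8.12 and 6.799 in control males and 6.78, 5.92 and 8.75 among cKO males. The control groups did not overlap, and the cKO groups did. The log2 difference was 0.44 (SE 0.16, limma adjusted p = 0.0957). Next were Kcnt2 at 0.34, Kcnj16 at 1.92, Kcnmb4 at 0.19 and Kcne2 at 1.94, with adjusted p from 0.230 to 0.382.

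Several other measures moved with sex in the controls. Over the 3 libraries of each group, the summed marker levels after subtraction were higher in males for astrocytes (217 to 255 against 149 to 154), oligodendrocytes (329 to 415 against 182 to 250.5), microglia and CA2 and CA3 pyramidal cells (86.1 to 97.4 against 66.2 to 75.7). They were lower for CA1 pyramidal cells (19.0 to 20.6 against 27.7 to 31.9), dentate granule cells (19.4 to 24.7 against 30.2 to 41.7) and the 5 pan-neuronal markers (368 to 399 against 413 to 459). Each of these lists held 5 genes, none of them at 0 in all controls. In the CA2 and CA3 list only Pcp4 had a log2 difference above 0, at 0.57. Rgs14 was at −0.44, Amigo2 at −0.45, Grik4 at −0.43 and Bok at −0.23. Map2 among the pan-neuronal markers (0.55) and Tdo2 among the dentate markers (0.15) also went against their lists. The receptor background was lower in every control male than in every control female. Their part in the sex difference of the channel genes was not tested.

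**Figure D5:**
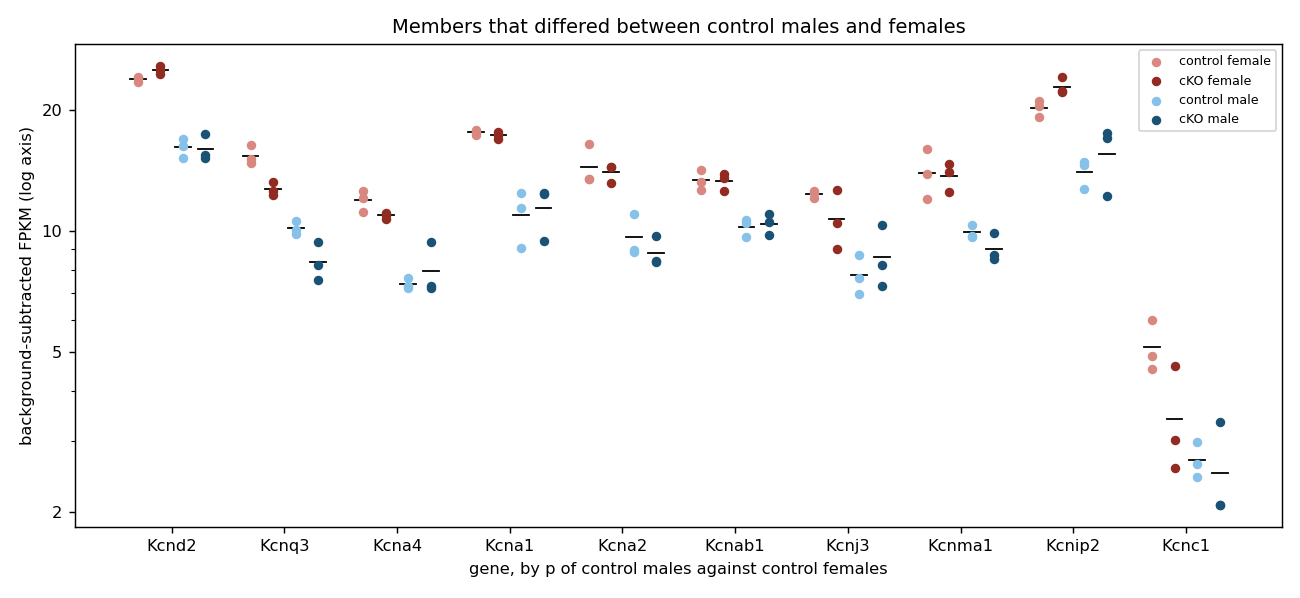
Background-subtracted FPKM (log axis) of the 10 channel genes that passed between control males and control females, in all 12 libraries; points are libraries and bars are means of the 3 in a group. In each of the 10 genes, which were chosen by the test on these control libraries, the 3 control males lie below the 3 control females.

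The cKO libraries give the same comparison in other samples, and it was added after the data were seen. Between cKO males and cKO females, 17 channel genes (31.5%) were lower in males and 5 (9.26%) higher, where 21.8% and 16.6% of all genes passed. Of the 10 genes above, 8 were among these 17, all but Kcnc1 and Kcnj3, and all 10 had a log2 difference below 0. Of all genes lower in control males, the share also lower between cKO sexes was not counted, so these counts have no background beside them. With no scaling between libraries 6 of the 10 were below 0, and without background subtraction 0. Kcnd2 was again first, at −0.64 (limma adjusted p = 0.00205), then Kcnq3 at −0.57 (0.00349), Kcna2 at −0.64 (0.00487), Kcnma1 at −0.58 (0.00591) and Kcna1 at −0.59 (0.00810). Higher in males were Kcnt2 at 0.76 (SE 0.17, 0.00961), Kcnn1 at 1.39 (0.0176), Kcnj11 at 1.27 (0.0438), Kcnt1 at 1.34 (0.0442) and Kcnj10 at 0.50 (0.0492). Kcnt2 had levels of 10.2, 8.88 and 11.2 in control females, 9.32, 7.06 and 7.66 in the cKO females, 10.2, 12.4 and 16.7 in control males and 13.6, 12.8 and 15.3 among cKO males. All cKO males lay above all cKO females, whereas the control groups overlapped. In the deposited FPKM it was the control groups that did not overlap, and the cKO groups did.

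These calls depend on single libraries and on the scaling. Between controls, 6 of the 10 passed without control female replicate 1, 6 without replicate 3, 5 without control male replicate 2 and 5 without replicate 3. Between cKO groups the 22 became 12 without cKO female replicate 2, 13 without replicate 3, 11 without cKO male replicate 1 and 12 without replicate 3, and 0 without cKO female replicates 2 and 3 together. With no scaling between libraries none passed between controls and all 10 stayed below 0, while 9 channel genes were higher and 1 lower between cKO groups, where 27.9% and 8.23% of all genes were. Without background subtraction none passed between controls, and Kcnd2 was at 0.060, Kcnq3 at 0.022, Kcna2 at 0.087, Kcnab1 at 0.23 and Kcnip2 at 0.26, where the median of all genes was −0.32. In that setting 28 channel genes were higher and 12 lower between cKO groups, where 24.1% and 42.8% of all genes were, with Kcnd2 at 0.82 and the median of all genes at −0.53. With array weights 19 passed between controls, 3 higher and 16 lower, where 15.9% and 17.5% of all genes did.

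A list of 29 genes for proteins that assemble with or regulate these channels, and for related cation channels, was read in the same fits. Of these, 22 were tested. None passed with limma in the comparisons of cKO with control, and at an unadjusted p under 0.05 there was 1 in females, 0 in males, 1 for the mean and 0 for the difference. At that p 18.1% of all genes were higher and 11.2% lower in females. Between control males and females none was higher and 6 were lower, against 6.54% and 5.15% of all genes. Among them were Dpp6, the transmembrane partner of Kv4 channels, at −0.62 (limma adjusted p = 0.00329), Adam22 at −0.52 (0.00374) and Adam23 at −0.43 (0.0368), receptors of the Kv1 ligand Lgi1, Rgs7bp, a regulator of G protein-gated channels, at −0.41 (0.0144), and Cntnap2, which clusters Kv1 channels, at −0.61 (0.0172). Between cKO males and females 1 was higher and 6 lower, against 16.6% and 21.8% of all genes. The median log2 difference over the list was −0.21 between control males and females, against −0.07 over all genes. Between cKO males and females it was −0.04, against −0.03. The listed genes were not followed through the alternative settings. Between control sexes the channel gene calls fell to 0 without background subtraction and to 0 with no scaling between libraries. The calmodulin gene Calm2 measured 1968 FPKM in control males.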

How the data were processed

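Hippocampal total RNA came from the miRVANA kit, per the labels' protocols, and libraries were made with the ScriptSeq Complete Gold kit after reduction of ribosomal RNA. Per the submitters' processing notes, HISAT2 2.0.4, StringTie and the GRCm38.p6 build were used. Trimming, strand and annotation release are not given in the sources used here. Deposited by the authors was 1 transcript table per library, with FPKM and, per the file headers, coverage (the mean signal per base). FPKM was a constant multiple of that coverage in each library, from which mapped bases were recovered. The files hold no counts, so no count test was run.

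FPKM was summed per gene for levels, and 54495 of 54532 genes matched GENCODE M21. For tests, bases per gene were divided by the union of exons, put on the FPKM scale, reduced by the library's median over 1459 receptor genes, set to 0 where negative, and scaled by median-of-ratios factors over protein-coding genes averaging 5 or more. Genes were kept if their mean reached 1 and if 3 or more libraries did. log2(level + 0.5) was fitted with limma 3.58.1 (trend and robust) in R 4.3.3, which gave the adjusted p-values. Other steps used Python 3.11.15. The model, at its main settings, was first tested on simulated data for all 6 comparisons. For females it recovered 60% of 100 genes changed by 1 on the log2 scale, with 32 false calls over 14433 genes. The alternatives were not simulated.

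The channel genes, marker and partner lists were chosen with earlier results of these data known. Named genes follow 1 rule: the highest member of each subfamily, the 5 of smallest p in each direction of each comparison, members on 1 side in both sexes, and 6 members tied to non-neuronal cells. Kcnab2, Kcnip4 and Kcna6 transcripts were added after their values were seen. Some genes are not reported here, in text or figures. Alternatives covered subtraction, scaling, pseudocount, filter, array weights, a replicate block and left-out libraries. The alternative without subtraction also changed the measure, the genes used for scaling and the filter.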

Additional observations from a re-analysis of the deposited data

How the results depend on the processing

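Among the 12 settings that each leave out 1 library, the number of channel genes past the threshold ran from 0 to 15 in females, stayed at 0 in males, 0 to 14 for the mean effect, 0 to 8 for the male minus female difference, 5 to 14 between control sexes and 11 to 28 between cKO sexes. The upper ends of the cKO effects come from the setting without cKO female replicate 1. Over all genes the shares past the threshold ran from 0.00663% to 38.7%, 0.0066% to 0.0133%, 0.0198% to 29.7%, 0% to 19.5%, 3.50% to 18.6% and 12.9% to 54.6% in the same order. With array weights, 8 channel genes passed in females, 10 for the mean and 6 for the difference, and 19 between control sexes, against 23.2%, 22.9%, 11.5% and 33.4% of all genes. Between control sexes, 0 passed without background subtraction, 0 with no scaling between libraries, 5 with no filter on low values, where 92 channel genes were tested, and 16 without cKO female replicates 2 and 3 together, against 0.264%, 0.102%, 1.395% and 23.9% of all genes. Between cKO sexes, 40 passed without background subtraction (28 higher and 12 lower), 10 with no scaling (9 higher and 1 lower) and 0 without cKO female replicates 2 and 3, against 66.9%, 36.1% and 0.549% of all genes. Of the single genes followed through the settings, those that changed sign did so without background subtraction. In that setting the measure, the genes used for scaling and the filter differ too. The median of all genes there moved to −0.32 between control sexes, −0.53 between cKO sexes, 0.33 in females and 0.24 for the mean. The genes that changed sign were, between control sexes, Kcna2 (0.087), Kcnab1 (0.23), Kcnd2 (0.060), Kcnip2 (0.26) and Kcnq3 (0.022), between cKO sexes Kcnd2 (0.82), in females Kcnh5 (−0.23) and for the mean Kcnj2 (−0.22). Of the 10 genes lower in control males, 10 were also below 0 between cKO sexes, but 0 without background subtraction and 6 with no scaling. The matching share over all genes lower in control males was not counted. The cause of these changes with the settings was not tested. With the replicate number as a block, 0 channel genes passed in each cKO comparison, 10 between control sexes and 21 between cKO sexes. The numbers do not pair the libraries by the labels, and same-numbered deviations correlated at 0.15, −0.30 and 0.38 in females and 0.04, −0.10 and 0.20 in males. Over the 22 alternatives, males gave 0 calls throughout. Depth was lowest in cKO female replicate 2, at 1.16 Gb, and the receptor median highest in replicate 3, at 2.25. Which of them limits low genes more was not tested.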

Other observations

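In cKO female replicates 2 and 3 the 95th percentile of receptor genes was 4.33 and 4.15, in bases over the union of exons. That scale usually lies below summed FPKM, so the channel FPKM is not set against it. Some channel genes that are low elsewhere had higher deposited FPKM in these libraries. Kcnq1, whose product carries a slow current in heart and epithelia, measured 8.44 and 8.40 FPKM there and 0.174 to 2.50 in the other 10 libraries. It shares 2.96% of its exon bases with Kcnq1ot1 on the opposite strand. Kcnu1 measured 7.82 and 6.16 FPKM there and 1.23 to 2.05 in the others. Kcnd1, a Kv4 pore, was at 5.40 FPKM in cKO female replicate 3 and at 2.32 in replicate 2. Kcna10 was at 4.25 FPKM in replicate 2 and 3.18 in replicate 3. Kcnk12, a two-pore subunit, went the other way, at 0.0649 FPKM in cKO female replicate 2 and 0.145 to 0.700 in the other libraries. These genes were chosen after their values were seen and were not tested.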
